A study of Mus musculus with 24 samples.

Results

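The genes described are 10 members of the calcineurin pathway: the catalytic subunits Ppp3ca and Ppp3cb, the regulatory subunit Ppp3r1, the calcineurin regulators Rcan1, Rcan2 and Rcan3, and the transcription factors Nfatc1 to Nfatc4. They were taken by gene symbol, and the symbols were chosen with earlier results of these data known. They hold 26 of the 23978 probes that the platform annotation gives a single gene, or 10 of 16593 named genes. Their RNA was read on 24 Illumina bead arrays, in smooth muscle cells grown from the carotid artery of male C57bl6 mice as primary vascular cultures. The groups were wild-type cells (5 arrays), cells lacking PMCA4 (5 arrays), and PMCA4 knockout cells electroporated with PMCA4b DNA (5 arrays), vector A (5 arrays) or vector B (4 arrays). All cells were first synchronized through serum, then given serum with the growth factor PDGF-BB, and taken in late G1 or at the start of S phase. Only the cells with PMCA4b or vector were electroporated, the labels do not say how vectors A and B differ, and they name neither the animals' age nor the species of the PMCA4b DNA. Nor is it stated that replicates are separate cultures or animals. Each p-value here therefore rests only on the spread among arrays within groups, pooled over the groups fitted, and that spread may be technical.

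Calcineurin is a phosphatase that calcium and calmodulin switch on. It removes phosphates from NFAT proteins, which then enter the nucleus and bind DNA, often beside AP-1 factors, until kinases such as GSK3 and DYRK return them to the cytoplasm. The RCAN proteins bind calcineurin and can hold it back. In cultured smooth muscle cells this pathway is known for its part in growth after stimulation with growth factors. Atp2b4 encodes PMCA4, a calcium pump of the plasma membrane whose PMCA4b form is known to bind calcineurin.

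The promoter windows of Rcan1 and Rcan2 are shown because the mouse Rcan1 gene has an internal start site known to respond to NFAT, and because Rcan2 had the widest range of levels among the 10 genes. Each window runs from 250 bases before to 50 bases after a start site in RefSeq (build GRCm38.p6), 5' to 3'. Capitals mark each GGAAA, the core letters of NFAT binding sites, and its reverse complement TTTCC, both strands having been searched.
Rcan1 window at chr16:92466120-92466419, minus strand: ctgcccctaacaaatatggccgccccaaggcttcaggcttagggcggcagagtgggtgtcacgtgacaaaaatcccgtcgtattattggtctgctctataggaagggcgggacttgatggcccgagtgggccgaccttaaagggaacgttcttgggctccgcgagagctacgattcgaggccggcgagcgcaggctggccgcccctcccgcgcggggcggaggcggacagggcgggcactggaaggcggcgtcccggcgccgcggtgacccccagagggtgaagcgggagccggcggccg
Rcan1 window at chr16:92400029-92400328, minus strand: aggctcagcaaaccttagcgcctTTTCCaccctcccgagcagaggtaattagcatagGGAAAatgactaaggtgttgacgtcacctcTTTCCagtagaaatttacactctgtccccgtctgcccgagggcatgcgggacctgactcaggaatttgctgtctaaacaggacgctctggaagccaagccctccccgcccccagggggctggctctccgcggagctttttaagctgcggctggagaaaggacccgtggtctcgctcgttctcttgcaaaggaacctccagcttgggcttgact
Rcan2 window at chr17:43801102-43801401, plus strand: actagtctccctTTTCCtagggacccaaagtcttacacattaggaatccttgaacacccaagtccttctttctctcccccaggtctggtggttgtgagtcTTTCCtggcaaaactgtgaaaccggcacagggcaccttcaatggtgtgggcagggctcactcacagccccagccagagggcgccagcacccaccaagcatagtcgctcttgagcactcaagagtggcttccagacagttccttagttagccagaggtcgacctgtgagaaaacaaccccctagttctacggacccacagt
Rcan2 window at chr17:43801601-43801900, plus strand: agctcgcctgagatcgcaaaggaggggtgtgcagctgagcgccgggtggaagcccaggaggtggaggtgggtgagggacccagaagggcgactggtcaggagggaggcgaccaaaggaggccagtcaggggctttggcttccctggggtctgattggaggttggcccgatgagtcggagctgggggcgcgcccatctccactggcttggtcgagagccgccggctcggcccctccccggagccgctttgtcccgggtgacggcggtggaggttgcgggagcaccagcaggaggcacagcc
Rcan2 window at chr17:43952749-43953048, plus strand: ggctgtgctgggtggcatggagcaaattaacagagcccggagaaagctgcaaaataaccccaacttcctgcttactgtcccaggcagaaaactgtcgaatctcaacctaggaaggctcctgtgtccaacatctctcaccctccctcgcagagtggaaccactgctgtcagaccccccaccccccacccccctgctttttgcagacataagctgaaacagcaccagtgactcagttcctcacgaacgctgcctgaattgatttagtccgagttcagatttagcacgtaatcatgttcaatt
The Rcan1 window listed last for that gene lies inside the gene and held 3 matches, and the window at the outer start held 0. Of the Rcan2 windows, the outermost held 2 matches and the other two held 0. Among all 32851 windows of the same length, 61.3% held at least 1 match, 26.7% at least 2 and 9.42% at least 3. Windows were counted for 8 of the 10 genes, and 8 of their 13 windows (61.5%) held a match, close to the share of all windows. No window was matched for Ppp3ca, and Nfatc1 was left out when the members' windows were selected. The set of all windows was not filtered in that way, so the shares come from differently selected sets. A match of these letters is a description and not a binding site.

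Between 9496 and 10406 of 25697 probes were detected per array (36.95% to 40.49%), and precision is limited by how many arrays each group has. Levels are given on the log2 scale after background correction and quantile normalization with neqc, where the lowest level of a detected probe lay between 6.16 and 6.57 and the top was 16.016. The median SD within groups over all tested genes was 0.123. Of the smooth muscle markers, Acta2 and Smtn were detected on all 24 arrays and Tagln on 14, while Myh11, Cnn1 and Lmod1 were detected on 0 of 24. Endothelial markers were detected on 0 of 24 arrays for each of 7 genes, and of 6 leukocyte markers only Cd14 (24 arrays) and Cd3e (1 array) were detected. Of 6 fibroblast markers 5 were detected, and their summed linear level was 2967 to 3559 in wild type, 31568 to 35186 in knockout, 7036 to 8324 with PMCA4b, 10894 to 11759 with vector A and 10908 to 12175 with vector B. These genes did not move together. From wild type to knockout Thy1 (9.43 and 14.81), Dcn, Dpt and Pdpn rose and Pdgfra fell (11.23 and 10.76). Thy1 was the brightest of them in knockout, and Dcn with vector A and vector B (12.53 and 13.02). The smooth muscle sum was 23870 to 28258 in wild type, 65125 to 68960 in knockout, 32548 to 38935 with PMCA4b and 15428 to 16498 with either vector. Acta2, the brightest of these markers, read 14.56 in wild type and 15.96 in knockout, near the top of the scale. Tagln read 8.5 and 10.11 there and was undetected with either vector, and Smtn read 10.42 and 10.37. The adipocyte sum (2 of 5 genes detected, Plin4 and Lpl, with Adipoq at background) was 459 to 549 in wild type, 473 to 632 in knockout, 162 to 181 with PMCA4b, 3427 to 3742 with vector A and 5885 to 6529 with vector B. The part of these shifts in the results below was not tested. The 1 detected probe of Atp2b4 (23 of 24 arrays) read 6.81 in wild type and 6.84 in knockout (limma adjusted p = 0.881), and its position relative to the deleted part was not known, so it does not check the genotype.

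Of the 10 genes, 8 were measured, meaning detected on at least 4 arrays. Nfatc2, with 5 probes, and Nfatc4, with 1 probe, were detected on 0 of 24 arrays, so these NFAT family members have only an upper bound here. In knockout against wild type, 6 of the 8 genes passed an adjusted p of 0.05 in limma: Ppp3ca rose, and Ppp3cb, Rcan2, Rcan3, Nfatc1 and Nfatc3 fell. Over all 7675 genes tested, 57.7% passed in that comparison, 26.6% as higher and 31.1% as lower. With PMCA4b against the average of the vectors, 6 of the 8 passed, Ppp3cb and Nfatc1 as higher and Ppp3ca, Rcan1, Rcan2 and Rcan3 as lower, against 78.8% of all genes (38.3% higher, 40.5% lower). The members' count lies close to the background with PMCA4b. In knockout 5 of the 8 passed as lower, beside 31.1% of all genes, a count of few genes whose excess was not tested. Most genes on the array passed in both comparisons. A call alone therefore does not set a gene of this pathway apart, and the sizes of the differences carry more of the description. The median absolute log2 difference of the 8 genes was 0.34 in knockout against wild type, beside 0.23 over all genes, and 0.56 with PMCA4b against vector, beside 0.43.

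**Figure D1:**
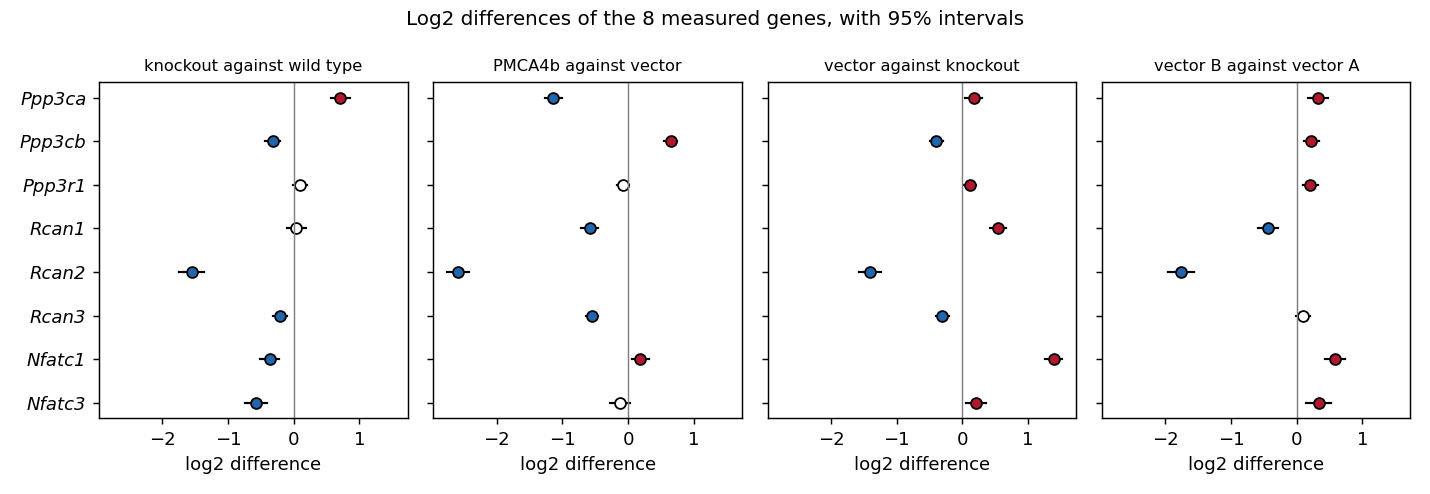
Log2 differences (x axis) of the 8 measured genes (rows) in 4 comparisons (panels). Points are fitted differences, lines are 95% intervals, and filled points passed an adjusted p of 0.05 (red higher, blue lower). Rcan2 lies farthest to the left in each of the panels. Its fitted value of -2.58 for PMCA4b against vector is no bound, because the probe was detected on 1 of 5 PMCA4b arrays, and the bound is at least 4.78-fold lower.

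Rcan2, a regulator that binds calcineurin, varied more than any other member: it was highest in wild type, lower in knockout, lower again with either vector and at or near background with PMCA4b. The wild-type arrays read 11.74, 11.86, 11.73, 11.63 and 11.84, and the knockout arrays 10.18, 10.13, 10.35, 10.17 and 10.19. With vector A the levels were 9.61, 9.72, 9.66, 9.64 and 9.74, and with vector B 8.06, 7.72, 7.90 and 7.98. With PMCA4b the probe read 6.23, 6.61, 6.29, 5.99 and 5.95 and was detected on 1 of the 5 arrays. No group overlapped another, and each of the 4 steps between neighbours in this order passed the test. Rcan2 was 2.94-fold lower in knockout than in wild type (log2 difference -1.55, SE 0.0915, limma adjusted p = 5.66e-13). In bulk RNA, fewer cells of a type and less RNA per cell cannot be told apart. Against the average of the vectors, the PMCA4b cells were at least 4.78-fold lower, a bound set by the lowest level of detected probes (adjusted p = 8.87e-19). Against each vector alone the bound was 8.79-fold for vector A (adjusted p = 4.43e-20) and 2.60-fold for vector B (adjusted p = 1.63e-13). Against wild type the PMCA4b cells were at least 37.3-fold lower (adjusted p = 4.17e-24), and against knockout at least 12.7-fold lower (adjusted p = 3.87e-21). Vector B was 3.38-fold below vector A (SE of the log2 difference 0.0971, adjusted p = 6.01e-13).

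The arrays fall into 3 sets of 8 neighbouring columns in the deposited table, taken here as arrays that may have been hybridised together, since no label states it. Vector A lies only in the third set and vector B only in the other two, so their difference and the set cannot be compared within a set. Within the sets that held both groups, Rcan2 fell by 1.64, 1.42 and 1.65 on the log2 scale in knockout against wild type. With PMCA4b it was below the vector of the same set in all 3 sets, and no size is given there because the probe was mostly at background with PMCA4b. Each of these within-set comparisons passed the test, and the last set holds only 1 array each of wild type, knockout and PMCA4b, whose spread is taken from the vector A arrays.

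**Figure D2:**
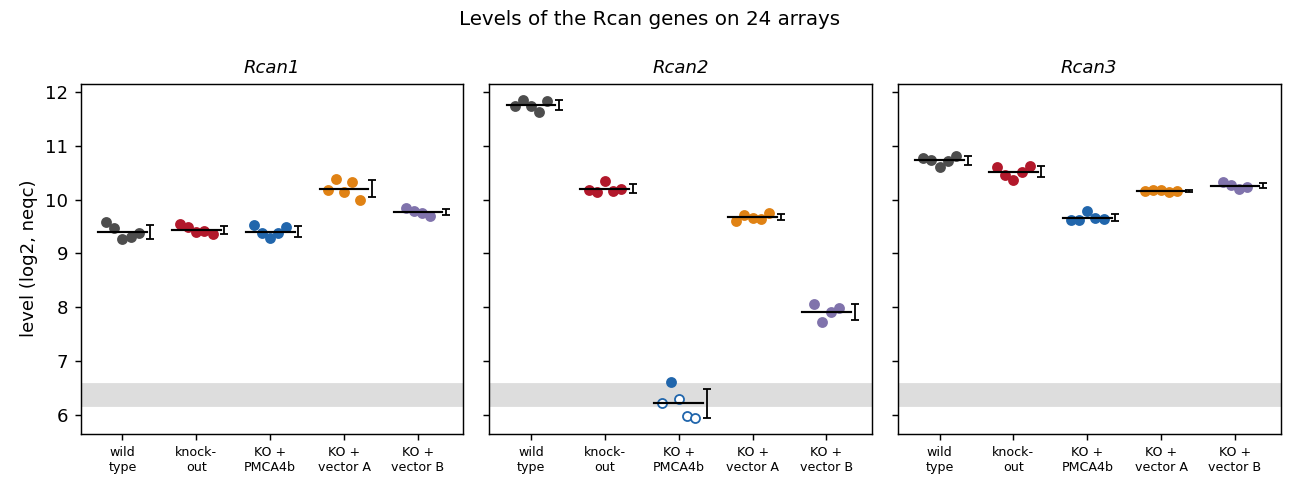
Level (log2, y axis) of Rcan1, Rcan2 and Rcan3 on each array, by group (x axis). Points are arrays, open where the probe was not detected, bars are group means, error bars are SD, and the grey band runs from 6.16 to 6.57, the lowest levels of detected probes. The Rcan2 groups step down from 11.76 in wild type to 6.21 with PMCA4b, while Rcan1 stands higher with the vectors only.

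Rcan1, the calcineurin inhibitor whose internal start site was shown above, was higher with the vectors than in the other groups. It read 9.59, 9.47, 9.27, 9.30 and 9.39 in wild type, 9.54, 9.48, 9.40, 9.41 and 9.36 in knockout, and 9.52, 9.37, 9.28, 9.37 and 9.48 with PMCA4b. With vector A the levels were 10.18, 10.38, 10.14, 10.32 and 9.99, and with vector B 9.84, 9.78, 9.74 and 9.70. All vector arrays lay above all others, and the other groups overlapped. Knockout and wild type differed by 0.04 (interval -0.11 to 0.18, adjusted p = 0.673), and PMCA4b and wild type by 0.004 (adjusted p = 0.966). Rcan1 was 1.49-fold lower with PMCA4b than with vector (log2 difference -0.58, SE 0.0625, adjusted p = 1.05e-08) and 1.46-fold higher with vector than in knockout (adjusted p = 3.61e-08). Vector B was 1.35-fold below vector A (adjusted p = 3.78e-05).

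Rcan3, the third gene of the family, fell in small steps and was lowest with PMCA4b. Its levels were 10.78, 10.74, 10.60, 10.72 and 10.80 in wild type and 10.61, 10.46, 10.37, 10.51 and 10.62 in knockout, which overlapped. With PMCA4b they were 9.62, 9.61, 9.79, 9.65 and 9.64, below every other array, while vector A spanned 10.13 to 10.18 and vector B 10.21 to 10.32. The gene was 1.16-fold lower in knockout than in wild type (SE of the log2 difference 0.0505, adjusted p = 0.000933), and this call was lost within each of the 3 array sets, where the log2 differences were -0.22, -0.22 and -0.18. With PMCA4b it was 1.46-fold lower than with vector (adjusted p = 7.46e-11) and 2.09-fold lower than in wild type (adjusted p = 4.31e-15). The step from vector B to vector A was 0.10 (interval -0.01 to 0.21, adjusted p = 0.119). All 3 Rcan genes were therefore lower with PMCA4b than with vector, and only Rcan2 and Rcan3 passed as lower in knockout than in wild type.

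The calcineurin subunits Ppp3ca and Ppp3cb moved against each other in knockout against wild type and in PMCA4b against vector. In vector against knockout Ppp3cb fell and Ppp3ca rose by 0.17, but with vector A alone Ppp3ca differed from knockout by 0.012 and did not pass. In vector B against vector A both were higher (0.32 and 0.23). Ppp3ca, which encodes the alpha form, read 9.89, 9.93, 10.19, 9.84 and 10.004 in wild type and 10.59, 10.72, 10.57, 10.78 and 10.72 in knockout. With PMCA4b it read 9.57, 9.85, 9.73, 9.65 and 9.73, with vector A 10.62, 10.64, 10.55, 10.82 and 10.79, and with vector B 11.09, 11.004, 11.04 and 10.88. Wild type and PMCA4b arrays lay below all others and overlapped each other. Ppp3ca was 1.63-fold higher in knockout than in wild type (log2 difference 0.70, SE 0.0697, adjusted p = 7.16e-09) and 2.2-fold lower with PMCA4b than with vector (log2 difference -1.14, SE 0.0616, adjusted p = 3.18e-14). The first difference was 0.75, 0.65 and 0.72 within the array sets, and the second -1.34, -1.27 and -0.96, each past the test.

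Ppp3cb, the beta form, showed the opposite signs in knockout against wild type and in PMCA4b against vector. Its arrays read 12.48, 12.53, 12.46, 12.42 and 12.34 in wild type, 12.21, 12.05, 12.14, 12.03 and 12.20 in knockout, and 12.41, 12.35, 12.35, 12.39 and 12.42 with PMCA4b. Levels with vector A were 11.66, 11.57, 11.53, 11.78 and 11.55, and with vector B 11.74, 11.88, 11.89 and 11.86. The vector arrays were all below the knockout arrays, which were all below wild type and PMCA4b. Ppp3cb was 1.25-fold lower in knockout than in wild type (log2 difference -0.32, SE 0.0527, adjusted p = 1.53e-05) and 1.57-fold higher with PMCA4b than with vector (log2 difference 0.65, SE 0.0466, adjusted p = 6.62e-12). Within the third array set, with 1 array a group, the knockout difference was -0.14 and did not pass (adjusted p = 0.487). Wild type and PMCA4b, the top neighbours in the order, differed by 0.06 (adjusted p = 0.286). These differences are each of 1 probe against itself across groups, and the probes' levels do not give the ratio of alpha to beta.

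Ppp3r1, the calcium-binding regulatory subunit, varied least, with group means from 11.94 ± 0.0857 (SD, n = 5) in wild type to 12.25 ± 0.0547 (SD, n = 4) with vector B. The vector B arrays, from 12.20 to 12.32, lay above all others, and the remaining groups spanned 11.83 to 12.17 and overlapped. Knockout and wild type differed by 0.10 (interval -0.01 to 0.20, adjusted p = 0.12), and PMCA4b and vector by -0.07 (interval -0.17 to 0.02, adjusted p = 0.147). Vector B was 1.15-fold above vector A (adjusted p = 0.00349).

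**Figure D3:**
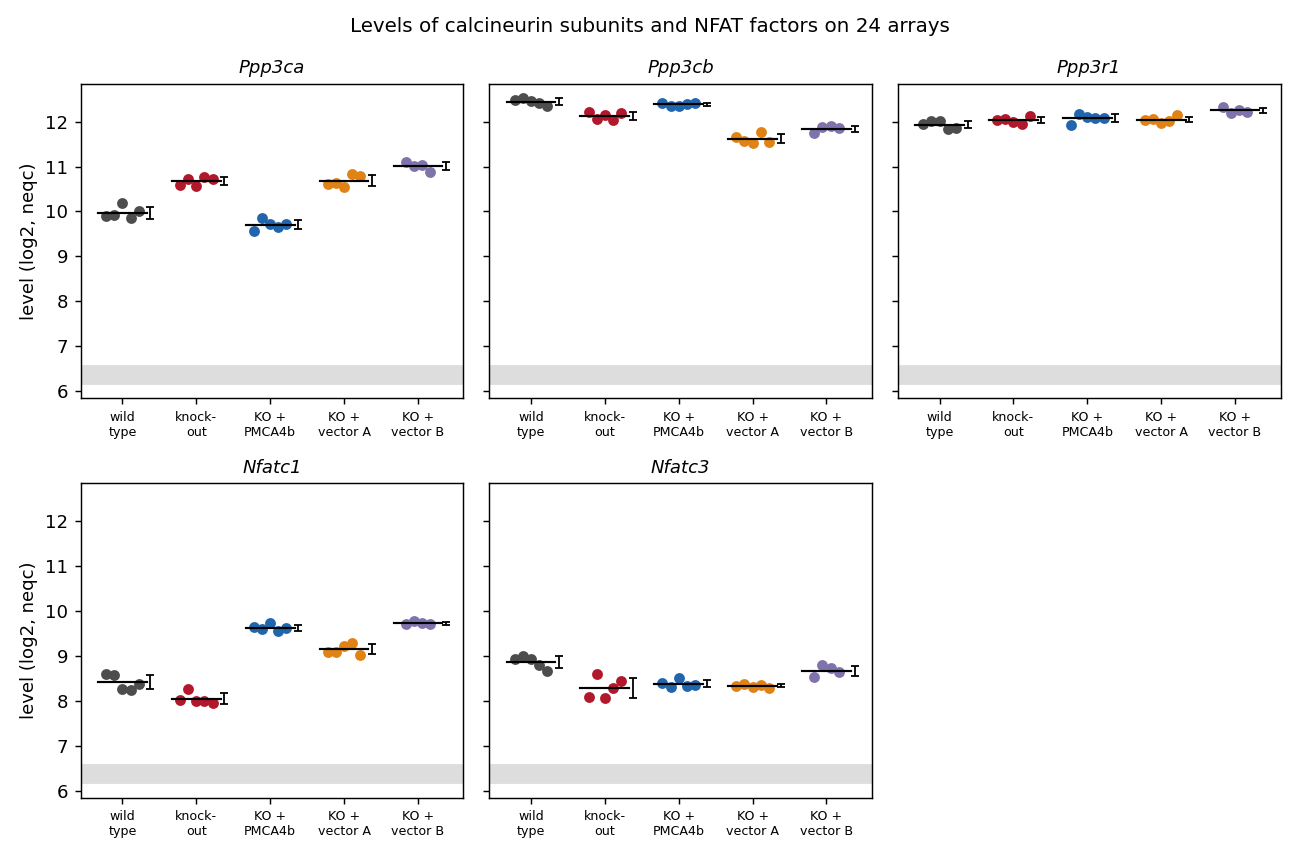
Level (log2, y axis) of the calcineurin subunits Ppp3ca, Ppp3cb and Ppp3r1 and of Nfatc1 and Nfatc3 on each array, by group (x axis), drawn as in the plot of the Rcan genes. Ppp3ca is lowest in wild type and with PMCA4b (9.97 and 9.71), where Ppp3cb is highest (12.45 and 12.38), and Nfatc1 is above 9 in the electroporated groups only.

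Among the transcription factors, Nfatc1, which acts downstream of calcineurin and can raise its own expression, was higher in all electroporated groups than in the others. It read 8.60, 8.59, 8.28, 8.26 and 8.39 in wild type and 8.03, 8.27, 8.01, 8.0 and 7.96 in knockout. With PMCA4b it read 9.64, 9.61, 9.73, 9.56 and 9.62, with vector A 9.10, 9.10, 9.23, 9.30 and 9.03, and with vector B 9.70, 9.78, 9.74 and 9.72. The electroporated arrays were all above 9 and the others all below, with 1 knockout array above the lowest wild-type array. Nfatc1 was 1.29-fold lower in knockout than in wild type (log2 difference -0.37, SE 0.0707, adjusted p = 0.000111) and 2.62-fold higher with vector than in knockout (log2 difference 1.39, SE 0.0625, adjusted p = 1.34e-15). Its difference between PMCA4b and the vector average was 0.19 (SE 0.0625, adjusted p = 0.00868), but the vectors disagreed. PMCA4b was 1.4-fold above vector A (adjusted p = 1.4e-06), while PMCA4b and vector B differed by 0.10, with vector B higher (adjusted p = 0.218). Vector B itself was 1.5-fold above vector A (adjusted p = 7.41e-07). The call of PMCA4b against vector was lost when both vectors were fitted as 1 group (difference 0.22, adjusted p = 0.0969), and the difference was -0.12 and -0.09 in the array sets that hold vector B and 0.47 in the set that holds vector A.

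Nfatc3, a further calcineurin-dependent NFAT factor, was highest in wild type. The wild-type arrays read 8.94, 9.0, 8.94, 8.81 and 8.66, and the knockout arrays 8.08, 8.59, 8.08, 8.29 and 8.45, all of them lower. PMCA4b arrays spanned 8.32 to 8.51, vector A 8.29 to 8.38 and vector B 8.53 to 8.79, so that only vector B reached the wild-type range. Nfatc3 was 1.48-fold lower in knockout than in wild type (log2 difference -0.57, SE 0.0829, adjusted p = 2.98e-06). In the third array set, with 1 array a group, that difference was -0.21 (adjusted p = 0.153). PMCA4b and vector differed by -0.12 (interval -0.27 to 0.03, adjusted p = 0.133), a difference that passed with scaling on the 75th percentile (-0.16, adjusted p = 0.049) and in a fit of only the groups compared (-0.12, adjusted p = 0.0304). Vector B was 1.26-fold above vector A (adjusted p = 0.00261).

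In the vector cells against knockout, which differ by electroporation and vector DNA, all 8 genes passed, 5 as higher (Ppp3ca, Ppp3r1, Rcan1, Nfatc1 and Nfatc3) and 3 as lower (Ppp3cb, Rcan2 and Rcan3). The background was 74.4% of all genes, 39.6% as higher and 34.8% as lower. The median absolute log2 difference was 0.35 both for the 8 genes and for all genes. Rcan2 was 2.66-fold lower (adjusted p = 1.39e-13), Ppp3cb 1.31-fold lower (adjusted p = 5.98e-08) and Rcan3 1.24-fold lower (adjusted p = 1.62e-06). The changes of Ppp3ca (0.17), Ppp3r1 (0.11) and Nfatc3 (0.21) were small, and the vectors disagreed. With vector A alone they were 0.012, 0.012 and 0.04 and did not pass (adjusted p = 0.886, 0.837 and 0.669). With vector B alone they were 0.331, 0.216 and 0.376 and passed (adjusted p = 4e-04, 0.00144 and 0.000623). Thus 5 of the 8 genes passed with vector A (75.1% of all genes) and 8 with vector B (67.2%). Without knockout replicate 3 these 3 changes of the vector average no longer passed, which leaves 5 of the 8. The count was also 5 with both vectors as 1 group and within array sets 1 and 2, but in these sets not for the same genes. In set 1 Rcan3 did not pass (adjusted p = 0.0524), while Ppp3ca did (0.021). In set 2 Ppp3cb (0.0628) and Rcan3 (0.0886) did not pass, while Nfatc3 (0.00617) and Ppp3r1 (0.0364) did. Nfatc3 also lost its call without knockout replicate 1 (adjusted p = 0.068), and Ppp3r1 without knockout replicate 4 (0.101), vector A replicate 5 (0.0516) or vector B replicate 1 (0.0584).

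Vector B against vector A is a comparison of control transfections, and 7 of the 8 genes passed in it, 5 as higher in vector B and 2 as lower, against 53.4% of all genes (27.9% higher, 25.5% lower). The genes lower with vector B were Rcan1 and Rcan2, and Rcan3 was the gene that did not pass. The median absolute log2 difference was 0.33 for the 8 genes and 0.23 for all genes. The differences of Ppp3ca, Ppp3cb, Rcan1, Rcan2 and Rcan3 between PMCA4b and vector had the same sign and passed against each vector taken alone, and those of Ppp3r1, Nfatc1 and Nfatc3 did not.

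The order of the group means was then read for each gene, with 4 steps between neighbours, and 20 of the 32 steps passed. The steps that did not pass were vector A to knockout for Ppp3ca (0.01), wild type to PMCA4b for Ppp3cb (0.06), and all steps below vector B for Ppp3r1. They also included knockout to PMCA4b and PMCA4b to wild type for Rcan1, vector B to vector A for Rcan3, and vector B to PMCA4b for Nfatc1 (0.10). For Nfatc3 they were wild type to vector B (0.19, adjusted p = 0.0528), PMCA4b to vector A (0.05) and vector A to knockout (0.04). Over all genes, 69.1% passed for PMCA4b against wild type, 78% for vector A against wild type and 72.1% for vector B against wild type. Against knockout the shares were 69.3% for PMCA4b, 75.1% for vector A and 67.2% for vector B, and between PMCA4b and each vector they were 78.8% for vector A and 72.2% for vector B. Of the 8 genes, 6 passed for PMCA4b against wild type, beside 69.1% of all genes. These were Ppp3ca, Ppp3r1, Rcan2, Rcan3, Nfatc1 and Nfatc3, with Ppp3cb and Rcan1 the others. Wild-type cells were not electroporated, so in this comparison PMCA4b and electroporation cannot be told apart. The smallest of those differences were 0.14 for Ppp3r1 (adjusted p = 0.0233) and -0.27 for Ppp3ca (adjusted p = 0.00172).

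Other probes of the same genes mostly gave the same directions. The other detected Ppp3ca probe, ILMN_2611431, was 0.62 higher in knockout than in wild type (adjusted p = 0.000387 over all kept probes) and fell by 0.72 with PMCA4b against vector (adjusted p = 6.96e-06). It did not pass for vector B against vector A (-0.05, adjusted p = 0.799) or for vector against knockout (0.10, adjusted p = 0.447), where the brighter probe passed. For Rcan2, ILMN_1212612 was 1.45 lower in knockout than in wild type on the log2 scale, with means of 8.53 and 9.98. That probe was detected on all vector A arrays at 7.16 to 7.61 and on 0 of 4 vector B and 0 of 5 PMCA4b arrays, so vector B was at least 2.14-fold below vector A (adjusted p = 4.25e-13). From knockout to vector A its mean went from 8.53 to 7.39, where the brighter probe went from 10.2 to 9.67. The less bright Rcan3 probe, ILMN_2823269, gave -0.24 in knockout against wild type (adjusted p = 0.00629) and -0.48 with PMCA4b against vector (adjusted p = 2.26e-07). Of the Nfatc1 probes, ILMN_2648455 gave -0.46 in knockout against wild type (adjusted p = 1.07e-05) and 1.41 in vector against knockout (adjusted p = 2.16e-15). ILMN_2648704, also of Nfatc1, was detected on 0 wild-type, 0 knockout, 5 PMCA4b, 3 vector A and 4 vector B arrays. It passed as higher with vector than in knockout (adjusted p = 5.97e-09), with no fold given because vector A was partly undetected. The other Rcan1 probe was detected on 1 of 24 arrays, and the remaining Ppp3ca, Rcan2 and Rcan3 probes on 0. Of the remaining Nfatc1 probes, ILMN_1224430 was detected on 2 of 24 arrays, and ILMN_2647734 and ILMN_2647739 on 0. The platform annotation gives them another Nfatc1 transcript than the brighter Nfatc1 probes. The transcripts each probe can bind were not resolved here, so a probe at background bounds its own target sequence and not the gene.

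**Figure D4:**
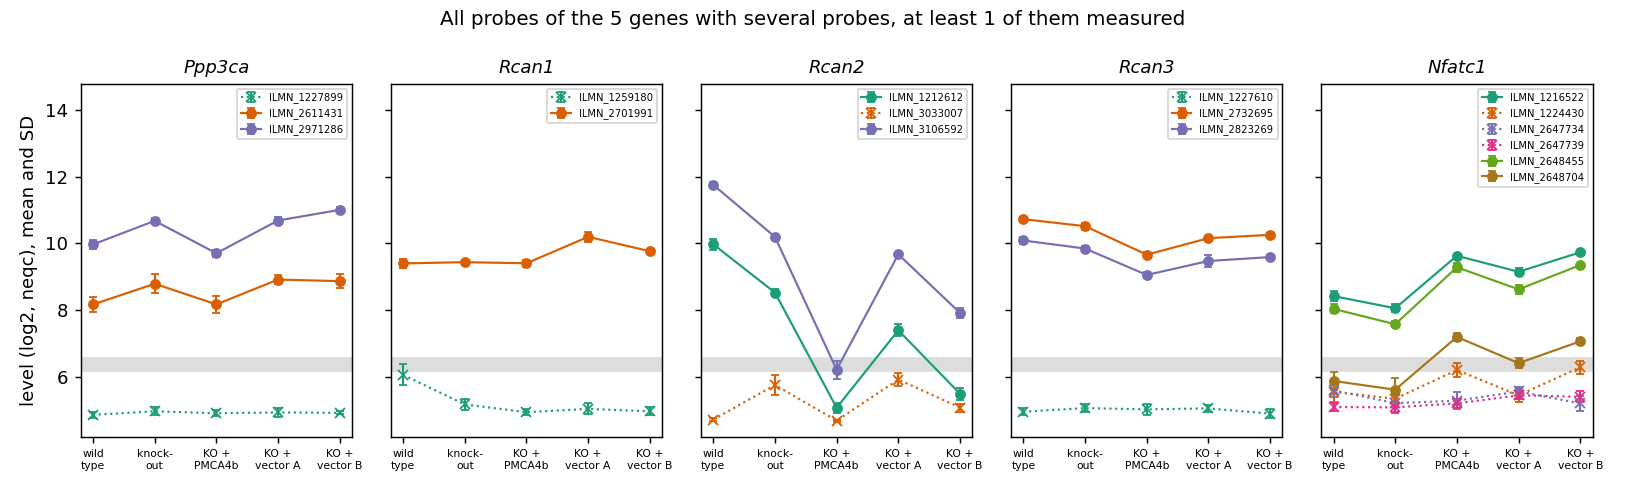
Group mean level (log2, y axis) of every probe of Ppp3ca, Rcan1, Rcan2, Rcan3 and Nfatc1, by group (x axis), with SD as error bars. Solid lines are kept probes, dotted lines with crosses are probes left out as rarely detected, and the grey band is the detection floor (6.16 to 6.57). From wild type to knockout the probes of a gene that were detected in both groups shift the same way, and the kept Rcan2 probes lie farther apart with vector A than in wild type.

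The rest of the pathway was read through 7 lists with 73 genes on the array, of which 47 were measured. In knockout against wild type, 23 of the 47 passed (48.9%, 13 higher and 10 lower), and with PMCA4b against vector 37 (78.7%, 11 higher and 26 lower). In vector against knockout 40 passed (85.1%, 25 higher and 15 lower) and in vector B against vector A 27 (57.4%, 12 higher and 15 lower). These shares stand beside the backgrounds of 57.7%, 78.8%, 74.4% and 53.4% above.

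Among core genes outside the 10, Nfat5, the NFAT relative that calcineurin does not regulate, was 1.62-fold lower in knockout than in wild type (10.68 and 11.38, adjusted p = 1.62e-07) and 1.75-fold lower with PMCA4b than with vector (adjusted p = 4.93e-10). Ppp3cc, the gamma catalytic subunit, was 1.48-fold higher in knockout (7.74 and 7.17, adjusted p = 7.1e-07) and 1.19-fold lower with PMCA4b (adjusted p = 0.00128), the same signs as Ppp3ca. The calmodulin genes Calm2 and Calm3 did not pass in knockout against wild type (adjusted p = 0.497 and 0.898), and with PMCA4b they were 1.34-fold and 1.12-fold lower than with vector. Of the calmodulin-dependent kinases 6 of 10 were measured, and 5 passed in knockout, 2 higher and 3 lower. Of the 3 lower, Camk2b was detected on only 2 of 5 wild-type and 0 of 5 knockout arrays. Camk2g was 1.51-fold higher (adjusted p = 2.3e-08), Camk2d 1.23-fold higher (adjusted p = 1.28e-05) and Camk2n1, an inhibitor of CaMKII, at least 1.6-fold lower (detected on 4 of 5 knockout arrays, adjusted p = 3.12e-05). With PMCA4b against vector 5 passed, 1 higher (Camk2d, 1.33-fold, adjusted p = 8.38e-09) and 4 lower. Among the latter were Camk2b (adjusted p = 1.02e-08) and Camk1, 1.36-fold (adjusted p = 1.73e-07). No fold is given for Camk2b, which was detected on 0 of 5 PMCA4b, 1 of 4 vector B and 5 of 5 vector A arrays.

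Among inhibitors, anchors and immunophilins, 5 of 10 genes were measured. Fkbp1a, which encodes the FK506-binding protein FKBP12, was the 1 gene that passed in knockout against wild type, at 1.38-fold higher (adjusted p = 2.64e-07). With PMCA4b against vector 4 passed, among them Ppif, the mitochondrial cyclophilin, at 2.11-fold higher (adjusted p = 5.48e-16) and Chp1, a calcineurin B homologue that can inhibit calcineurin, at 2.07-fold lower (adjusted p = 3.41e-11). Fkbp8, a further immunophilin, was 1.43-fold lower (adjusted p = 1.78e-08). Of the NFAT kinases and transport genes 12 of 15 were measured, with 6 called in knockout (4 higher, 2 lower) and 8 with PMCA4b (3 higher, 5 lower). The JNK genes Mapk9 and Mapk8, whose products phosphorylate NFAT proteins, were 1.54-fold and 1.71-fold lower in knockout than in wild type (adjusted p = 7.75e-11 and 8.07e-10), while Lrrk2 was 1.74-fold higher (adjusted p = 1.68e-10). Dyrk1b, of the DYRK family, was 3.73-fold lower with PMCA4b than with vector (6.78 and 8.68, adjusted p = 5.72e-18), and Lrrk2 and Prkaca, a catalytic subunit of protein kinase A, were 1.28-fold lower each (adjusted p = 4.93e-06 and 3.04e-05). Of the other calcineurin substrates 7 of 11 were measured, and the 3 that passed in knockout were higher: Mef2a 2.19-fold, Mef2c 1.6-fold and Bad 1.23-fold. With PMCA4b 5 passed, 2 higher and 3 lower, the latter being Mef2c (at least 1.53-fold), Bad (1.29-fold) and Crtc3, a coactivator of CREB (1.42-fold).

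Of NFAT's partner factors 8 of 10 were measured. Of these 3 passed in knockout against wild type, all lower (Junb 1.4-fold, Jund 1.29-fold and Ep300 1.15-fold), and with PMCA4b against vector 6 passed, 1 higher and 5 lower. Fos, an AP-1 subunit of the immediate early response, was detected on 0 of 5 arrays in each of wild type, knockout and PMCA4b and read 9.61 ± 0.0831 (SD, n = 5) with vector A. In vector B cells the level was 9.45 ± 0.0838 (SD, n = 4). Fos was thus at least 8.24-fold lower in PMCA4b than in vector cells (adjusted p = 4.23e-23). Junb was 2.8-fold lower (adjusted p = 4.36e-18) and Fosl1 2.14-fold higher (adjusted p = 7.49e-15) with PMCA4b than with vector. Of 13 genes reported as NFAT targets 5 were measured, and they did not move one way. In knockout against wild type Adamts1, a protease, was 3.74-fold higher (adjusted p = 1.81e-16) and Ccl2, a chemokine, 2.97-fold higher (adjusted p = 2.16e-12), while Vcam1, an adhesion molecule, was 1.57-fold lower (adjusted p = 7.27e-10). With PMCA4b against vector Vcam1 was 2.94-fold lower (adjusted p = 1.43e-18), and Ccl2 and Myc were 2.61-fold and 3.03-fold higher (adjusted p = 6.31e-13 and 2.19e-12).

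**Figure D5:**
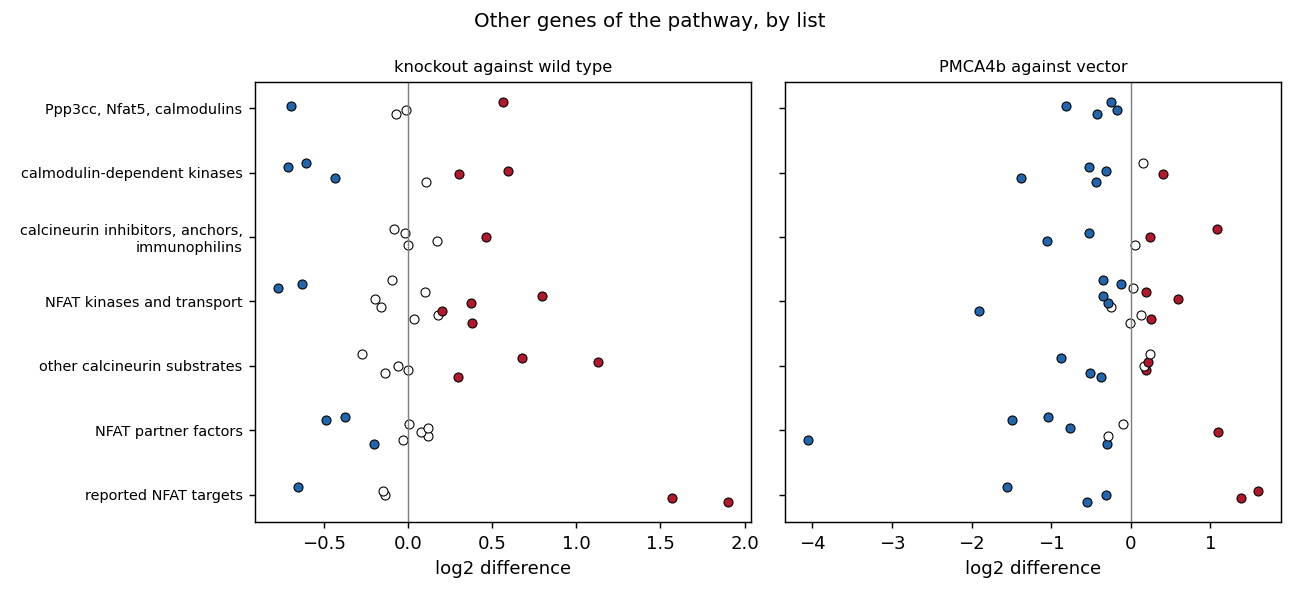
Log2 difference (x axis) of each measured gene of 7 pathway lists (rows) in knockout against wild type (left) and PMCA4b against vector (right). Each point is a gene, filled where it passed an adjusted p of 0.05 (red higher, blue lower), and genes within a row are spread for legibility. The point near -4 is Fos, whose fitted value of -4.06 is no bound because the gene was at background with PMCA4b.

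Genes whose pattern over the 5 group means was most like that of Rcan2, Nfatc1 and Ppp3ca were found by the root mean square of the differences between group means, each gene centred on its own average, among 7674 other genes. For Rcan2 these were Loxl1, a lysyl oxidase relative, at 0.522, Cdkn2a, which encodes cell cycle inhibitors, at 0.589, and Akr1c18, a steroid dehydrogenase, at 0.762, where the median gene was at 1.95. Loxl1 fell from 13.45 in wild type to 9.22 with PMCA4b, and Cdkn2a and Akr1c18 were detected on 0 of 5 arrays with PMCA4b. The nearest to Nfatc1 were Ugt1a6a at 0.137, Abcb6 at 0.168 and Trib3 at 0.177 (median 0.72). The nearest to Ppp3ca were Adamtsl4 at 0.0831, Cyp2d22 at 0.111 and Abtb1 at 0.12 (median 0.573). Abcb6, Trib3, Cyp2d22 and Abtb1 were undetected on some arrays of wild type. In knockout Trib3 was detected on 0 of 5 arrays and Abcb6 on 1 of 5. With PMCA4b Abtb1 was detected on 0 of 5 arrays and Cyp2d22 on 1 of 5. Their lowest levels are therefore bounds, and their likeness rests partly on values at background. These are descriptions over 5 group means, with no test.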

How the data were processed

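RNA was measured on 24 Illumina bead arrays, and all 24 were used. The deposited table gives per probe and array a bead intensity, not normalized between arrays and with values below 0, and a detection p-value, per the file headers. The authors' log2 values, from another deposited table, served as an alternative. How the software made them was not given in the sources used here. Intensities were processed with neqc in limma 3.58.1 (R 4.3.3): normexp background from the detection p-values, offset 16, quantile normalization. The filter kept 11139 probes detected (p under 0.01) on 4 or more arrays, and the named probe with the highest mean stood for its gene (7675 genes). The platform annotation named the genes and left 1719 probes unnamed.

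A linear model of all arrays held 1 mean per group (5 groups, 19 residual degrees of freedom), with moderated two-sided tests, Benjamini-Hochberg adjustment over all genes and calls under 0.05. The members' other probes were taken from the same fit over all kept probes. PMCA4b was compared with the average of both vector means. Where a probe was at background on the dimmer side, folds are given as at least N-fold: the brighter mean is set against the dim arrays' mean, each array taken at its own value or at its lowest detected level, whichever is higher. No fold is given where the brighter side was partly undetected as well. Intervals are at 95%.

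The members and the gene lists were chosen with earlier results of these data known. All members are named, and from each list up to 3 called genes with the smallest adjusted p in knockout against wild type and in PMCA4b against vector. Other values of those genes, and Calm3, complete their lists. The nearest 3 genes in pattern are named for Rcan2, Nfatc1 and Ppp3ca. No p-value was adjusted over a list alone. Alternatives covered background, offset, scaling, filter, probe choice, the authors' values, blocks, array sets and leaving out each array. The fit was tested on simulated data. Sequences are from RefSeq promoter tables. Figures were drawn with matplotlib 3.10.9 and tables read with pandas 2.3.3 in Python 3.11.15, and the R package data.table (version 1.17.8).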

Additional observations from a re-analysis of the deposited data

Results flagged for a closer look

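Among 61 groups of 4 or 5 arrays, each for 1 probe, 4 had an array far from the others by Dixon's criterion, and chance alone gives about 1 in 20. Knockout replicate 3 read 10.35 for Rcan2, where the other knockout arrays read 10.14 to 10.19. PMCA4b replicate 3 read 9.79 for Rcan3, against 9.61 to 9.65. Knockout replicate 2 read 8.27 for Nfatc1 (probe ILMN_1216522), against 7.96 to 8.03, and PMCA4b replicate 5 read 9.05 for its probe ILMN_2648455, against 9.33 to 9.36.

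The fitted effect of PMCA4b had opposite signs against vector A and vector B for 3 genes, but in each gene 1 of the effects did not pass. The difference between these effects is that between the vector groups, and it passed for each gene in limma. With the array set as a block it was lost for Nfatc3 (adjusted p = 0.0606). Arrays of vector A and vector B therefore differed in the main fit, and a reversal of sign is not shown. For Nfatc1 the effect was 0.48 against vector A (adjusted p = 1.4e-06) and -0.10 against vector B (0.218), a difference of -0.58 (adjusted p = 7.41e-07). For Nfatc3 it was 0.05 (adjusted p = 0.612) and -0.29 (0.00527), a difference of -0.34 (adjusted p = 0.00261). For Ppp3r1 it was 0.03 (adjusted p = 0.625) and -0.18 (0.00681), a difference of -0.20 (adjusted p = 0.00349). Vector A and vector B share no array set, so that the vector and the set cannot be told apart within a set.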

How the results depend on the processing

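Of 784 values of member genes under alternatives, 745 kept their direction and call, 28 lost the call, 2 gained it and 9 changed sign. Of 196 counts, 9 moved by more than 1.5 times. Within array sets 1, 2 and 3, fewer arrays entered and 2743, 2790 and 2216 genes were called in knockout against wild type, and within set 3 only 2 members. In vector against knockout 5 members were called within sets 1 and 2, with both vectors as 1 group and without knockout replicate 3, but not the same 5 throughout. Leaving out each array in turn gave 4230 to 4306 genes for knockout against wild type (6 members each time), 5895 to 6018 for PMCA4b against vector (6 members), 5534 to 5657 for vector against knockout (5 to 8 members) and 3757 to 3903 for vector B against vector A (7 members). Signs changed for Rcan1 in knockout against wild type (-0.014 in set 1, -0.031 in set 3). With PMCA4b against vector they changed for Nfatc1 (-0.119 in set 1, -0.085 in set 2), and in set 3 for Nfatc3 (0.021) and Ppp3r1 (0.045). In vector against knockout they changed in set 3 for Nfatc3 (-0.109), Ppp3r1 (-0.074) and Ppp3ca (-0.034). Sets 1 and 2 hold vector B alone and set 3 vector A alone, and further causes were not tested. With the mean of a gene's probes, Ppp3ca lost its calls in vector against knockout (adjusted p = 0.0877) and in vector B against vector A (0.19). Nfatc3 lost the latter with the array set as a block (0.0606). Ppp3r1 lost its call in vector against knockout with scaling on the 75th percentile (0.313) and with no filter (0.0638). The labels do not state that replicate numbers pair the samples. Over all genes, deviations of same-numbered wild-type and knockout arrays correlated at 0.012 to 0.42. The range was 0.073 to 0.475 for wild type with PMCA4b, 0.039 to 0.46 for knockout with PMCA4b and -0.03 to 0.022 for wild type with vector A. An array's best partner had its number in 3, 4, 4 and 1 of 5 cases. Same-numbered arrays of wild type, knockout and PMCA4b lie in the same array set, so a pairing and the set cannot be told apart. With the replicate number as a block, the paired fits called 4526, 6126, 5813 and 4096 genes in the 4 comparisons (6, 6, 8 and 7 members). Levels near the detection floor limit Rcan2 with PMCA4b.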
